A study of Mus musculus with 4 samples.

Results

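The genes described here are 10 chromosome neighbours of Calcr, the gene deleted in this experiment. They are Tfpi2, Gng11, Bet1, Col1a2, Casd1, Sgce, Peg10, Ppp1r9a, Pon2 and Pdk4, chosen as genes within about 2 Mb of Calcr on mouse chromosome 6. They are 10 of 18193 named genes, and all 22 probe sets that the platform annotation assigns to 1 of these symbols were taken. The order along the chromosome comes from the RefSeq annotation of GRCm38.p6, in which Tfpi2 is the first protein-coding gene beyond Calcr on that side and Pdk4 the 15th. The question was whether signals near the deleted gene differ between control and Calcr conditional knockout (cKO) cells.

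Muscle satellite cells, the stem cells of skeletal muscle, were sorted from 10-week-old mice as YFP-positive cells 2 weeks after tamoxifen and were not cultured. Control mice carried Pax7Cre/+, Calcr +/+ and Rosa-YFP/YFP, and cKO mice carried Pax7Cre/+, Calcr flox/flox and Rosa-YFP/YFP. Both groups therefore carried the tamoxifen-dependent Cre (Pax7-CreERT2) on 1 Pax7 allele and both received tamoxifen, and the Cre acts in cells that express Pax7. Each group had 2 biological replicates on 1 array each, and this number of arrays limits the precision. How many mice each replicate pooled, and the strain of the floxed allele, are not stated in the labels. The floxed chromosome and the deletion lie in the same mice, so an effect of the deletion and an effect of the chromosome segment that came with the floxed allele cannot be told apart.

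This stretch of chromosome 6 holds an imprinted cluster. In imprinting, the copy of a gene from 1 parent is silenced. Peg10 and Sgce are expressed from the paternal copy and start next to each other in opposite directions at a differentially methylated CpG island. Calcr itself is expressed mainly from the maternal copy in mouse brain, Asb4 is maternally expressed, and Ppp1r9a and Pon2 show a maternal bias in extra-embryonic tissue. The other genes of the stretch have unrelated tasks, from collagen to a Golgi fusion protein. Calcr also hosts microRNA genes, among them Mir489, a microRNA known for keeping satellite cells quiescent. It is shown here because it lies inside the targeted gene, on the same strand (GRCm38.p6, chr6:3721922-3721944, minus strand). The mature sequence from RefSeq is given with its seed, bases 2 to 8, in capitals. Its level was not analysed here.
mmu-miR-489-3p: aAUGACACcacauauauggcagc

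Values are MAS5 signals, which are linear array intensities summarised over the probes of a probe set, and differences are on the log2(signal + 1) scale, cKO minus control. Median signals of the arrays ran from 57.8 to 70.4. Only probe sets whose mean log2 signal over the 4 arrays was at least that of the median probe set (63.9 as a signal) were tested. All 10 genes and 17 of their 22 probe sets passed. The lead value of each gene is from its brightest probe set.

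The targeted gene differed in the direction of the labels. Calcr (probe set 1418688_at) read 1268 and 1424 in control and 568 and 684 in cKO, a log2 difference of -1.11 with an SE of 0.25 and a 95% interval from -1.70 to -0.51 (limma, adjusted p = 0.99999). The groups did not overlap. The sources used here do not say whether this probe set lies in the deleted part. Limma was run over 22519 probe sets, of which 0 (0.0%) passed at an adjusted p of 0.05 and 163 (0.724%) at an unadjusted one. The unadjusted share is smaller than a threshold of 0.05 gives when nothing differs, so p-values of this fit ran high. Same-numbered arrays deviated together (correlation 0.43), and this fit left that shared variation in its error. The part of this variation in the high p-values was not tested. Even Calcr was not called, so 0 calls are no measure of how alike the groups were. With 2 samples a group, an exact permutation test cannot give a 2-sided p below 0.333.

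Markers of the sorted cells and of other cell types were measured on the same arrays. All 8 satellite cell markers passed the signal filter, and their summed signals, Calcr itself included, were 19847 and 25428 in control and 18868 and 20862 in cKO. All 8 log2 differences were below 0 (median -0.15, against -0.04 over all genes). The 3 genes wholly lower in cKO were Cd34, Sdc4 and Calcr, the deleted gene itself. Over all genes tested, 12.1% were wholly lower. Endothelial markers (9 of 10 kept) summed to 7487 and 837 in control and 6894 and 1090 in cKO, so replicates 1 of both groups were high and replicates 2 low. Pericyte and smooth muscle markers (7 of 8 kept) followed the same split, at 12974 and 5215 against 14162 and 5224. Fibro-adipogenic markers, of which 9 of 10 were measured and 6 kept, summed to 14382 and 18198 in control and 16146 and 17252 in cKO. Leukocyte markers (4 of 8 kept) summed to 1046 and 1840 against 1314 and 462, lowest on cKO replicate 2. Muscle fibre markers (6 of 6 kept) were at 3086 and 1322 against 1441 and 2275. Schwann cell markers (2 of 4 measured, 1 kept) were at 156 and 104 against 115 and 29, and tenocyte markers (2 of 4 kept) at 554 and 243 against 701 and 156.

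Over the 10 neighbours, Col1a2 stood at a log2 difference of 0.88 and the other 9 lay between -0.12 and 0.20. By limma's adjusted p, 0 of the 10 passed 0.05. An unadjusted p under 0.05 was found for 1 of 10, Col1a2, against 0.72% of the 10140 genes tested. Because p-values of this fit ran high, that share is not a plain background for 1 of 10. Both cKO arrays were above both control arrays for 2 of the 10, Col1a2 and Bet1, and below them for 0. Over all genes tested, 8.53% lay wholly higher in cKO and 12.1% wholly lower, 20.6% in either direction, so 2 of 10 is near the background. The median difference of the 10 was 0.02, and that of all genes was -0.04. There were 5 differences above 0 and 5 below it, and those of Ppp1r9a and Pon2 turned from below to above 0 (to 0.09 and 0.03) with arrays centred on their median. For 7 of the 10 the 95% interval of the limma difference lay within a 2-fold change in either direction. It was wider for Tfpi2, Gng11 and Col1a2.

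**Figure D1:**
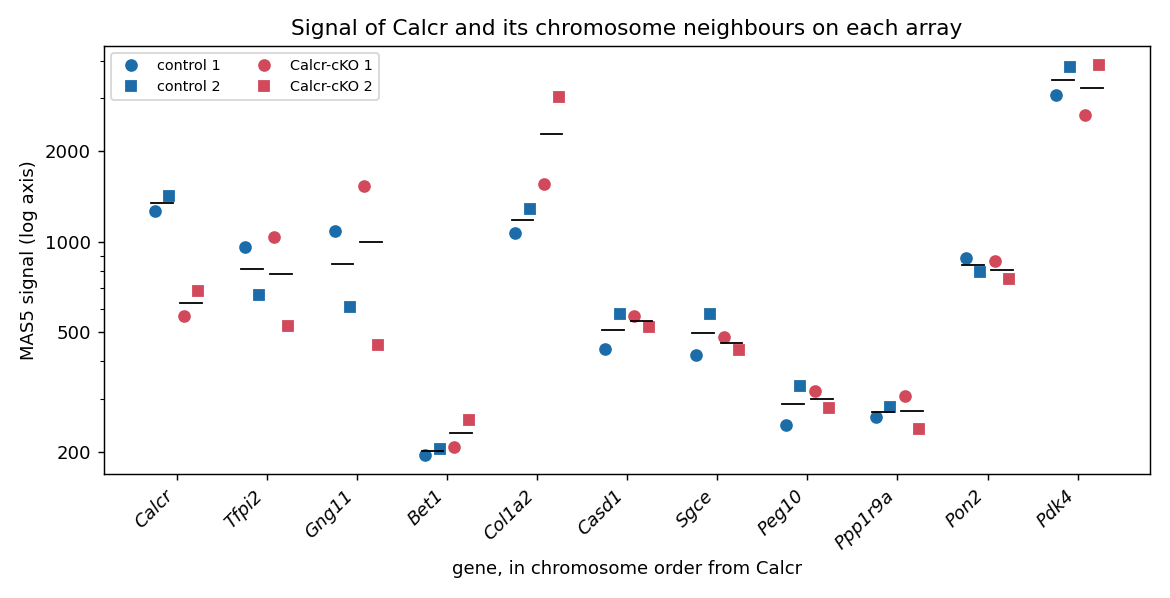
MAS5 signal (log axis) of the brightest probe set of Calcr and its 10 neighbours, in chromosome order; each point is 1 array, circles are replicate 1, squares replicate 2, and black lines are group means. Calcr read 1268 and 1424 in control and 568 and 684 in cKO. Among the neighbours, Col1a2 (1072 and 1288 against 1558 and 3023) and Bet1 (196 and 205 against 208 and 256) also had groups without overlap. The gap between the nearest Col1a2 arrays was smaller than the spread of its cKO arrays.

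Col1a2 encodes the alpha 2 chain of type I collagen, the main fibrillar collagen of the connective tissue around muscle. Its brightest probe set (1450857_a_at) read 1072 and 1288 in control and 1558 and 3023 in cKO. The groups did not overlap, and cKO replicate 2 was the highest array. The difference was 1.85-fold, a log2 value of 0.88 with an SE of 0.32 and a 95% interval from 0.12 to 1.65 (limma, adjusted p = 0.99999). A second probe set (1423110_at) read 622 and 888 against 944 and 2299, again without overlap, with a log2 difference of 0.99 (95% interval -0.02 to 1.99). The third (1446326_at) was below the signal filter at 14.5 and 47.5 against 15.0 and 65.8. Much of the size came from 1 array: without cKO replicate 2 the log2 difference of the brightest probe set was 0.41, and without cKO replicate 1 it was 1.36. With the mean over all 3 probe sets it was 0.71, and the groups overlapped.

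On their brightest probe sets, genes that act with type I collagen did not show the same size of difference. Their other kept probe sets ran from -0.75 (Fmod) to 0.57 (Col5a2, 95% interval -0.25 to 1.39). Of 12 listed collagen fibre genes, all kept, 8 were above 0 and 4 below, with a median log2 difference of 0.06, and 0 passed at an unadjusted or adjusted limma p under 0.05. Col1a1, the partner chain in type I collagen, read 2148 and 4779 in control and 3851 and 4712 in cKO, a log2 difference of 0.41 with overlapping groups. Col3a1, of the fibrillar type III, read 5419 and 7335 against 6526 and 6944. Its other probe set overlapped too, at 1513 and 3774 against 3096 and 3914 (log2 difference 0.54, 95% interval -0.36 to 1.45). Bmp1, a protease that trims procollagen, was lower on both cKO arrays, at 444 and 430 against 392 and 347. The other kept Bmp1 probe set overlapped, at 288 and 403 against 350 and 275. The difference between Col1a2 and Col1a1 was not tested.

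Markers of fibro-adipogenic cells, which make much of the collagen in muscle, were read beside Col1a2. Of their 9 measured members 2 were wholly higher in cKO and 1 wholly lower. Among the 6 kept these counts were 1 and 0, beside 8.53% and 12.1% of all genes tested. On cKO replicate 2, the highest array of Col1a2, 4 of the 9 were at their highest (Pdgfra, Dcn, Lum and Dpep1), 2 at their lowest (Dpt and Cd248) and the other three in between. The proteoglycan genes Dcn and Lum read 3848 and 406 there. On the other arrays Dcn ran from 2313 to 2935 and Lum from 199 to 298. Dpep1 read 308 on cKO replicate 2 and 73.8 to 84.9 elsewhere. Dpt, a matrix protein gene, read 3066 on that array and 3634 to 4949 on the others, and Cd248, below the filter, 8.73 against 24.6 to 77.2. Pdgfra, the defining receptor of these cells, was below the filter at 40.8 and 36.0 against 50.9 and 58.2. Their part in the Col1a2 values was not tested.

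**Figure D2:**
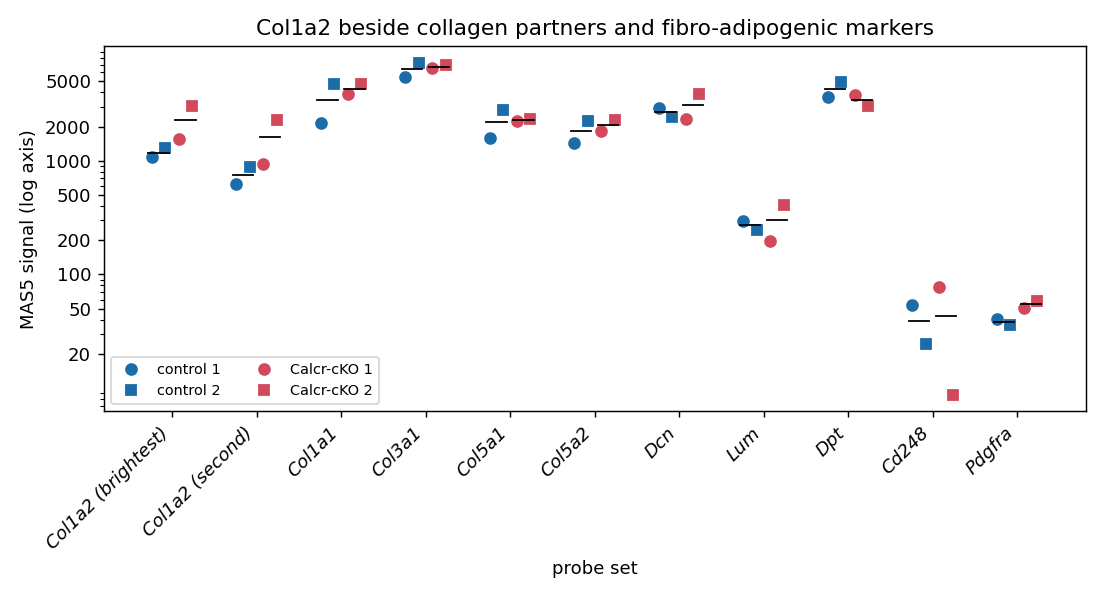
MAS5 signal (log axis) of the kept Col1a2 probe sets and of collagen partners and fibro-adipogenic markers; points are arrays (circles replicate 1, squares replicate 2) and black lines are group means. Both Col1a2 probe sets are highest on cKO replicate 2 (3023 and 2299), as are Dcn at 3848, Lum at 406 and Pdgfra at 58.2, whereas Dpt (3066) and Cd248 (8.73) are lowest there, and Col1a1 and Col3a1 overlap between the groups.

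The sequences before the starts of Col1a2 and Bet1 are shown because these were the 2 genes whose groups did not overlap. They are RefSeq windows of GRCm38.p6, 280 bases long, with the annotated start at base 251. Of the 10 neighbours, 7 had an entry. Capitals mark the letters of a CCAAT box (CCAAT), of a GC box (GGGCGG) and of a TATA box (TATAAA), each searched on both strands, and the marked matches do not overlap each other. The Col1a2 window (chr6:4505368-4505647, plus strand) holds CCAAT letters from bases 142 and 251 and GGGCGG from bases 46 and 63. The Bet1 window (chr6:4086901-4087180, minus strand) holds 1 GC box match, from base 104, and no CCAAT match. TATAAA is in neither window. Over all 32851 windows of this length, 36.1% hold CCAAT, 34.7% GGGCGG and 13.1% TATAAA on either strand. A match describes these letters and is not a measured binding site.
Col1a2: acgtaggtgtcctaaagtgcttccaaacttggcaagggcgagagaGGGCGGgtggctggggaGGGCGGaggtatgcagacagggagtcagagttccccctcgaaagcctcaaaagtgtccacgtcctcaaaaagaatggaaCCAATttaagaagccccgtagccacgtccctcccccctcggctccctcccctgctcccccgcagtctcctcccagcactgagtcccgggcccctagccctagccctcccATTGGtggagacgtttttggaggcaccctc
Bet1: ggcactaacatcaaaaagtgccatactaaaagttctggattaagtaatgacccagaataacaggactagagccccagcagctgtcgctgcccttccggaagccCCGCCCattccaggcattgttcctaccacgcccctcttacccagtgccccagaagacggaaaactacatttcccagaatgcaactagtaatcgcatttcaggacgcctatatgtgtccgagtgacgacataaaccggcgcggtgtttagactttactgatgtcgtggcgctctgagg

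Bet1 encodes a SNARE protein of transport between the endoplasmic reticulum and the Golgi. It read 196 and 205 in control and 208 and 256 in cKO. The nearest arrays of the groups were at 205 and 208, and after quantile normalization or centring of the arrays the count of non-overlapping neighbours was 1. Its log2 difference was 0.20, SE 0.33 (95% interval -0.58 to 0.98), and 0.05 without cKO replicate 2. The other probe set overlapped, at 149 and 186 against 176 and 198. Of 9 Golgi SNARE and tethering genes, 3 were above 0 and 6 below with a median of -0.02. Gosr1, another Golgi SNARE gene, was lower on both cKO arrays, at 295 and 216 against 120 and 158 (log2 difference -0.87, limma, adjusted p = 0.99999).

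Gng11 and Tfpi2 differed by replicate number more than by genotype. Gng11, which encodes a gamma subunit of heterotrimeric G proteins and is abundant in endothelium, read 1086 and 606 in control and 1537 and 454 in cKO. Replicates 1 were the high arrays in both groups, by 1.79-fold in control and 3.38-fold in cKO, and the genotypes overlapped. The log2 difference was 0.04 with a 95% interval from -1.28 to 1.37. Leaving out control replicate 2 gave -0.38, and leaving out cKO replicate 1 gave -0.83. Tfpi2, a Kunitz-type inhibitor of serine proteases secreted to the matrix, read 962 and 667 against 1038 and 523. Replicates 1 were higher by 1.44-fold and 1.98-fold, and the log2 difference between genotypes was -0.12 (95% interval -1.03 to 0.79).

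Gng11 and Tfpi2 shared with endothelial markers the split by replicate number, but not the order of the arrays within it. Both genes were highest on cKO replicate 1 and lowest on cKO replicate 2. Endothelial sums were highest on control replicate 1 (7487) and lowest on control replicate 2 (837). Tenocyte sums had the array order of Gng11, at 554 and 243 in control and 701 and 156 in cKO. Cdh5, the endothelial cadherin, read 1044 and 79.7 in control and 1060 and 110 in cKO, and in both groups 9 of 10 endothelial markers were higher by 2-fold or more on replicate 1. So were 7 of 8 pericyte and smooth muscle markers. The part of these cells in the Gng11 and Tfpi2 signals was not tested, and in bulk RNA fewer cells of a type and less RNA per cell cannot be told apart. Pax7, of the satellite cell list, read 2319 and 3647 against 2170 and 2434, with the lower values on replicates 1.

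**Figure D3:**
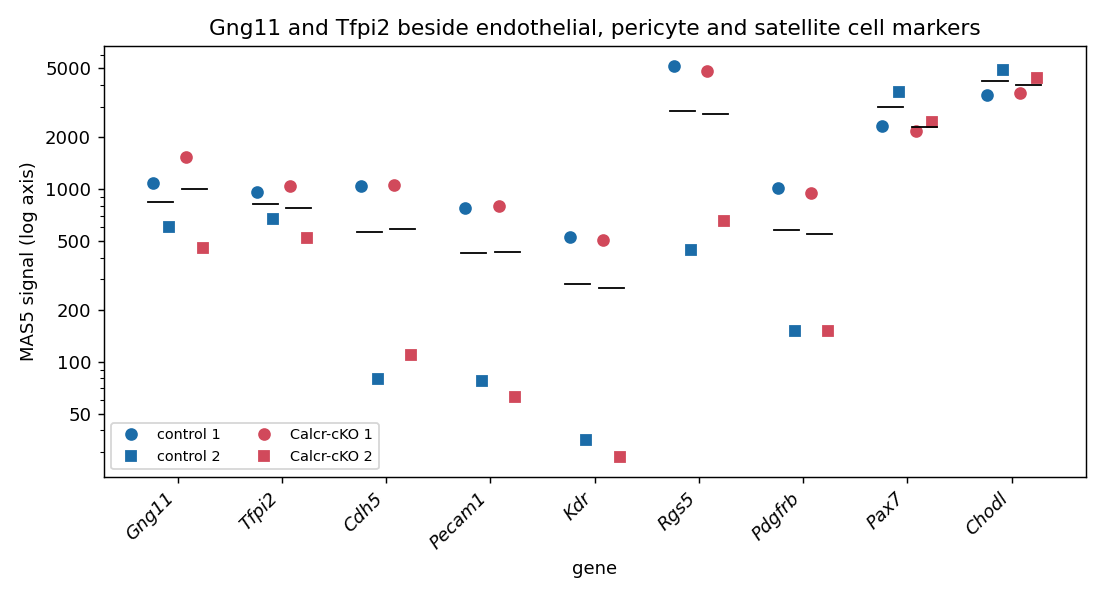
MAS5 signal (log axis) of Gng11 and Tfpi2 beside endothelial (Cdh5, Pecam1, Kdr), pericyte (Rgs5, Pdgfrb) and satellite cell (Pax7, Chodl) genes; points are arrays (circles replicate 1, squares replicate 2), black lines group means. Gng11 and Tfpi2 are higher on replicates 1 in both groups, as are the endothelial and pericyte genes, while Pax7 and Chodl are not.

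Among 12 measured G protein beta and gamma genes, 9 were kept, with 3 above 0, 6 below and a median of -0.04. Gnb4, a beta subunit gene, was higher on both cKO arrays, at 378 and 251 against 398 and 434, and Gng4 lower, at 98.2 and 199 against 90.4 and 92.5. Neither had an unadjusted limma p under 0.05. Other kept Gnb4 probe sets read 223 and 111 against 300 and 225, without overlap, and 109 and 23.3 against 98.3 and 73.9, with overlap. The other kept Gng4 probe set overlapped, at 68.5 and 187 against 75.5 and 22.6. Of 7 measured genes of the protease list that Tfpi2 belongs with, 4 were kept and 3 of them were below 0 (median -0.23). Plat, the tissue plasminogen activator, read 944 and 1244 in control and 828 and 860 in cKO, without overlap (log2 difference -0.36). Tfpi, the paralog of Tfpi2, read 317 and 405 against 339 and 328 by its brightest probe set. Its other kept probe sets parted. They were wholly lower in cKO at 310 and 440 against 256 and 239, and wholly higher at 75.6 and 101 against 102 and 133. The last overlapped, at 265 and 289 against 304 and 278.

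On their brightest probe sets the imprinted pair Peg10 and Sgce overlapped between the groups. Peg10, a retrotransposon-derived gene needed for the placenta, read 246 and 331 in control and 318 and 281 in cKO. Its log2 difference of 0.07 (SE 0.33) had a 95% interval from -0.71 to 0.85, a range that reaches less than 2-fold either way. Sgce, the epsilon member of the sarcoglycans in the dystrophin complex, read 421 and 574 against 482 and 436 (log2 difference -0.10, 95% interval -0.83 to 0.63). In both genes control replicate 1 was the lowest array and control replicate 2 the highest, so the cKO arrays lay inside the control range. A second Sgce probe set was far below the filter, at 27.6 and 18.2 in control and 11.7 and 0.793 in cKO. On that probe set the cKO arrays were wholly lower, with a log2 difference of -2.30 in the fit with no filter (95% interval -4.67 to 0.08). The mean over both Sgce probe sets gave -1.20 with an SE of 0.54.

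Other imprinted genes of the cluster gave mixed values. Ppp1r9a, which encodes neurabin, a scaffold that binds actin and protein phosphatase 1, read 261 and 283 in control and 308 and 239 in cKO by its brightest probe set (95% interval of the log2 difference -0.77 to 0.77). Its other kept probe sets read 197 and 243 against 318 and 218, and 151 and 204 against 214 and 172. All 3 overlapped. The other probe sets were below the filter, at 32.8 and 55.5 against 43.7 and 33.4, and at 53.5 and 95.4 against 58.5 and 31.4.

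Asb4, which encodes an adaptor of ubiquitin ligases, lies between Pon2 and Pdk4 and was on the list of other neighbours. It read 234 and 331 in control and 188 and 118 in cKO, with the cKO arrays wholly under the control arrays, as for 12.1% of all genes tested. This is a log2 difference of -0.90 with a 95% interval from -1.82 to 0.02 (limma, adjusted p = 0.99999). Its other kept probe set read 129 and 217 against 176 and 63.6, with overlap. In both probe sets cKO replicate 2 was the lowest array.

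A list of imprinted genes, mostly from elsewhere in the genome but with Asb4 of this stretch, did not lean one way on the brightest probe sets. Of 31 listed, 28 were measured and 22 kept (Asb4 among them), with 11 above 0, 11 below and a median of 0.02. There were 4 of the 22 wholly higher in cKO and 3 wholly lower, beside 8.53% and 12.1% of all genes tested. Asb4 is counted among the 11 below 0 and the 3 wholly lower. Meg3 is counted there too, by its brightest probe set at 5707 and 5294 against 5106 and 4970 (log2 difference -0.13). Several other kept Meg3 probe sets were wholly higher in cKO, with log2 differences from 0.10 to 0.70, and others overlapped. Dlk1, a Delta-like gene of another imprinted cluster, read 292 and 518 against 1260 and 1065 (log2 difference 1.57, limma, adjusted p = 0.99999). Impact, a translation regulator, was higher in cKO on its brightest probe set, at 166 and 167 against 251 and 213. Its other kept probe set overlapped, at 132 and 222 against 102 and 209. An Impact probe set below the filter was wholly lower in cKO, at 67.8 and 80.1 against 57.0 and 51.4. Nap1l5, a nucleosome assembly relative, was lower at 195 and 281 against 162 and 169. Neither had an unadjusted limma p under 0.05. Of the list kept for Peg10, genes derived from retrotransposons, 4 of 5 were measured and 1, Arc, was kept, at 476 and 212 against 467 and 323.

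Among dystrophin complex genes listed with Sgce, 10 of 13 were measured and 9 kept, 3 above 0 and 6 below (median -0.10). Dmd, the dystrophin gene, read 1280 and 1083 in control and 974 and 1059 in cKO, without overlap (log2 difference -0.21). Its other kept probe sets overlapped, at 842 and 786 against 590 and 825, and at 291 and 125 against 154 and 116. Sntb1, a syntrophin gene, read 1210 and 1062 against 1080 and 562. Of the actin and phosphatase list with Ppp1r9a, 4 of 5 were measured and kept, 2 above 0 and 2 below (median -0.06). On their brightest probe sets, its phosphatase genes Ppp1cc (2873 and 3033 against 3166 and 3385) and Ppp1cb (4162 and 4045 against 3819 and 3714) lay apart in opposite directions. The other kept Ppp1cc probe set was wholly lower in cKO, at 956 and 1030 against 885 and 950.

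Pon2 showed how far probe sets of 1 gene can part. It encodes an intracellular paraoxonase with antioxidant activity. The brightest probe set read 885 and 793 in control and 863 and 751 in cKO, with overlap and a 95% interval of the log2 difference from -0.66 to 0.54. A second read 574 and 534 against 706 and 407. Another (1429020_at) read 158 and 149 against 193 and 319, without overlap, with a log2 difference of 0.69 (95% interval -0.20 to 1.58). The platform annotation gives this probe set the same source sequence as the brightest one, which did not differ that way. The last was below the filter, at 53.8 and 35.7 against 42.2 and 40.4. Counting probe sets in place of genes, 4 of the 17 kept probe sets (2 of Col1a2, 1 of Bet1 and 1 of Pon2) were wholly higher in cKO and 0 wholly lower, against 7.87% and 13.5% of all probe sets tested. Probe sets of 1 gene are not independent.

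Pdk4 encodes a kinase that shuts down pyruvate dehydrogenase and is induced when cells burn fatty acids. It read 3068 and 3810 in control and 2649 and 3859 in cKO. The lowest and the highest array were both cKO arrays, and the log2 difference was -0.10 with a 95% interval from -0.61 to 0.41. Of 11 genes of the pyruvate dehydrogenase complex and its regulators, all kept, 3 were above 0 and 8 below (median -0.08). The kinase gene Pdk3 was lower on both cKO arrays, at 71.6 and 108 against 67.3 and 58.0 (log2 difference -0.49). Of metabolic genes often induced with Pdk4, 8 of 10 were measured and kept, with 3 above 0, 5 below and a median of -0.05. Angptl4 read 600 and 548 against 335 and 975, and the fatty acid importer gene Cpt1a 1376 and 1677 against 862 and 1909. Like Pdk4, both had their lowest and highest values on cKO arrays. Foxo1, Foxo3 and Acot2 of the same list had theirs on control arrays by their brightest probe sets.

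Casd1, which adds acetyl groups to sialic acids, read 440 and 575 in control and 567 and 521 in cKO (log2 difference 0.11, 95% interval -0.59 to 0.81). Its other kept probe set spread more, at 93.9 and 229 against 206 and 138. Both overlapped. Of 8 sialic acid genes, 6 were kept, 4 above 0 and 2 below, with a median of 0.33 that ranged from -0.16 to 0.24 when 1 array was left out. The sialic acid synthase gene Nans read 95.3 and 179 against 337 and 137, and the sialyltransferase gene St3gal1 was lower on both cKO arrays, at 695 and 821 against 623 and 582.

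**Figure D4:**
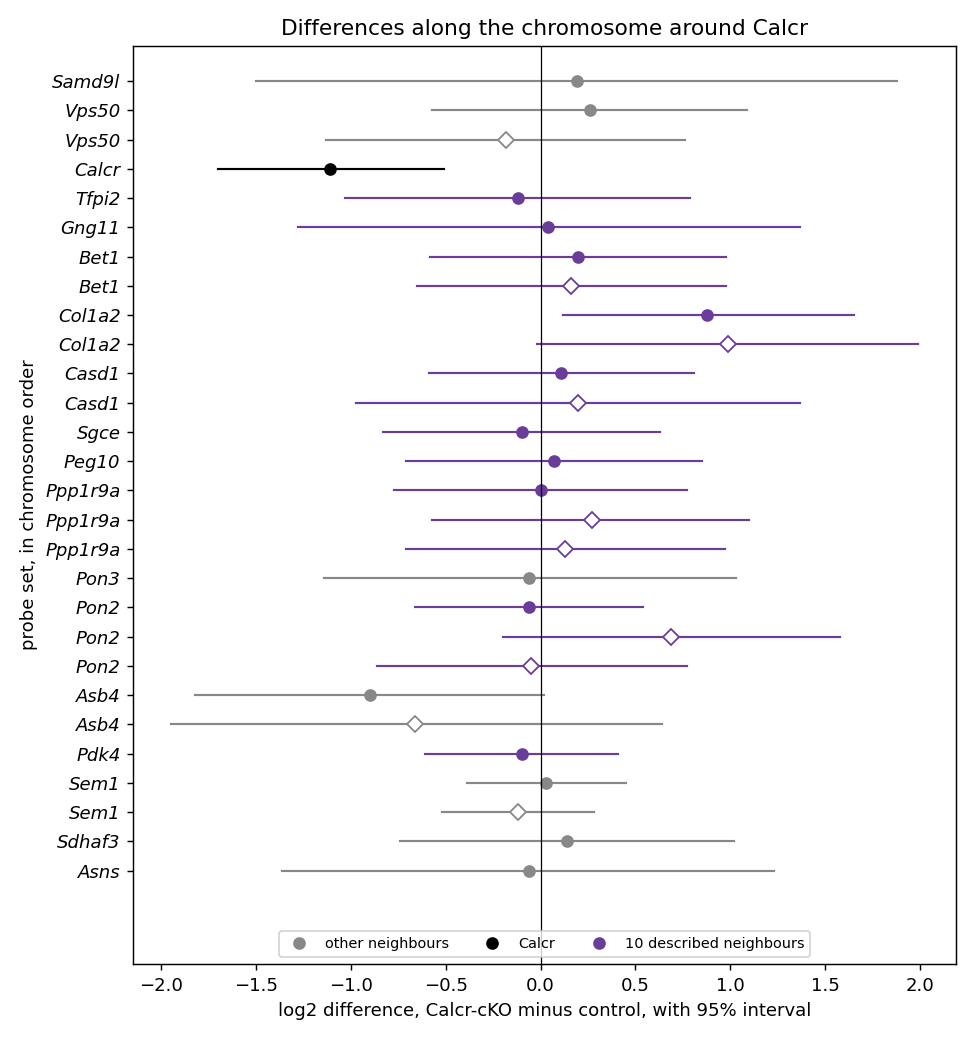
Log2 difference, cKO minus control, of each kept probe set of Calcr, its 10 neighbours and other nearby genes in chromosome order, with the 95% interval of limma; filled circles are a gene's brightest probe set and open diamonds its other kept probe sets. Besides Calcr at -1.11, the interval lies off 0 only for the brightest Col1a2 probe set (0.88), and the genes drawn on either side of it, Bet1 and Casd1, stand at 0.20 and 0.11.

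Other genes near Calcr were read in the same way. Of 15 other genes listed near Calcr, 7 were kept, 4 above 0 and 3 below, with a median log2 difference of 0.03. Of the 7, 1, Asb4, was wholly lower in cKO, which is near the 12.1% of all genes tested. Vps50, a tethering complex gene and the protein-coding gene next to Calcr on the other side from Tfpi2, read 246 and 346 against 295 and 413. Samd9l, an interferon-induced gene beyond it, read 338 and 74.5 against 270 and 123, high on replicates 1 as Gng11 was. Sem1, a proteasome subunit gene, read 2677 and 3243 against 3274 and 2747. Taking all genes within 30 gene places of Calcr on either side, 15 of 60 were measured and 11 kept. Of these 8 were above 0 and 3 below, with a median of 0.11, but 8 of the 11 are among the 10 neighbours already described. The 3 others were at 0.13 to 0.26. Of 525 kept genes of the whole chromosome, 219 were above 0 and 306 below (median -0.05), and of all 10140 genes 4330 and 5810 (median -0.04).

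Genes most like 3 of the neighbours over the 4 arrays were found by the root mean square distance of their log2 values, each centred on its own mean. For Gng11 they were 9630013A20Rik, Tcl1b3 and Pik3r3, at 0.066 to 0.087, and all 3 were high on replicates 1. For Col1a2 they were Gp1bb, Tsga10 and Zwilch, at 0.043 to 0.11, each below or near the filter in control cells and brightest on cKO replicate 2. For Peg10 they were Tbc1d19, Wbp11 and Dbn1, at 0.014 to 0.015, and Peg10 itself varied by an SD of only 0.19 on this scale. With only 4 arrays, such likeness is a description.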

How the data were processed

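Total RNA of sorted satellite cells was hybridised to 1 array per sample. The authors deposited MAS5 signal intensities on a linear scale, per the submitters' processing notes. The target of the scaling was not stated, and 2% trimmed means ran from 210 to 238. The platform annotation named the genes: the 45101 probe sets include 64 AFFX controls, and 34945 had 1 symbol, 932 several and 9160 none; 34754 matched the RefSeq table by Entrez identifier, and 0 symbols changed.

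Values were taken as log2(signal + 1). Probe sets at or above the median mean log2 signal were kept (22519). Genotypes were compared with limma 3.58.1 in R 4.3.3 (lmFit, eBayes with an intensity trend, 2 residual and 5.32 prior degrees of freedom). Benjamini-Hochberg adjustment was over all kept probe sets, and p-values are 2-sided. The fit was run on simulated data to check that changes of known size came back. The simulated noise was independent between arrays, without variation shared by replicate number, so this does not test the p-values on arrays like these. For each gene the brightest probe set leads.

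The 10 genes and the lists of other neighbours, partner genes, imprinted genes and cell type markers were chosen with earlier results of these data known. From each list, up to 4 genes with the smallest limma p, and defining markers, are named; Dcn, Lum, Dpt, Cd248, Cd34, Sdc4, Col3a1, Tfpi, Sem1, Samd9l, Angptl4, Cpt1a, Cdh5 and Pax7 are named as comparisons chosen after their values were seen. No coordinates belong to the arrays; those given are of RefSeq sequences in GRCm38.p6. Alternatives were other scalings, filters, a pseudocount of 32, no trend, a replicate block, other choices of probe set and leaving out each array.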

Additional observations from a re-analysis of the deposited data

How the results depend on the processing

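Of 128 values of the 10 neighbours under alternatives, 110 kept their direction and 18 turned it; none had an adjusted limma p under 0.05. Col1a2 kept its direction in all 13 and Bet1 in all 12 that could be run. With arrays centred on their median Ppp1r9a was at 0.09 and Pon2 at 0.03; with quantile normalization Ppp1r9a was at 0.06, and with the mean over probe sets Pon2 was at 0.12. Leaving out 1 array in turn gave log2 differences from -0.61 to 0.37 for Tfpi2, -0.83 to 0.92 for Gng11, -0.08 to 0.30 for Casd1, -0.32 to 0.12 for Sgce, -0.15 to 0.28 for Peg10, -0.18 to 0.18 for Ppp1r9a, -0.16 to 0.04 for Pon2 and -0.37 to 0.17 for Pdk4, and the cause of these turns was not tested. The count of neighbours without overlap was 1 in place of 2, higher in cKO, with quantile normalization, with centring and with the 75th percentile filter. With the mean over probe sets it was 1, Sgce, lower in cKO at -1.20 (SE 0.54), which was -0.10 on its brightest probe set; Col1a2, at 0.71, then overlapped. The median over the 10 ranged from -0.09 to 0.16 when 1 array was left out, and over the other neighbours from -0.10 to 0.16. Over all tested probe sets the median moved from -0.06 to 0.04 with centring. The 0 probe sets called became 163 at an unadjusted p under 0.05 (49 higher), 123 by the rule of 2-fold without overlap (27 higher) and 0 to 5 when 1 array was left out. The replicate numbers are shared by the groups, but no label says that they pair the mice; deviations of same-numbered arrays correlated at 0.43 over 22519 probe sets, and with the replicate number as a block 5 probe sets were called, none of them of these genes. With the replicate block Col1a2 had, with limma, an adjusted p = 0.90057, against adjusted p-values of 0.89508 to 0.99999 over its alternatives. Bet1 with the stricter filter and Sgce with only unsuffixed probe sets could not be run, since no probe set was left.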
